A study of Homo sapiens with 3 samples.

Results

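Collagens, laminins and tenascin C are secreted proteins of the extracellular matrix, and their genes were taken from the annotation that came with the counts: every protein-coding gene named COL or LAM followed by its chain number, together with TNC. The members described are 56 genes, 44 collagen genes, 11 laminin genes and TNC, of 58735 genes in all. RNA was sequenced from A549, an established human lung adenocarcinoma cell line grown in F12K medium with fetal bovine serum, in 3 libraries of 1 condition each. The control library came from cells with a control vector, and the libraries DDX24-sh1 and DDX24-sh2 came from cells with either of 2 short hairpin RNAs against DDX24, an RNA helicase. The methods describe stable populations of cells infected with pLKO.1 lentivirus and kept in puromycin, so the control cells also carried vector and drug selection, although the text calls the control an empty vector in one place and a control hairpin in another. Each condition had 1 library (n = 1), and with no replicate no test and no p-value is given. Intervals are exact 95% binomial intervals from the counts of the compared libraries and cover counting error only, not the spread between cultures.

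A collagen is a trimer of chains in which glycine recurs at a fixed spacing along a triple helix. Fibrillar collagens form the fibres of connective tissue, type IV collagen forms the network of basement membranes, and other types link fibrils, anchor epithelium or span the cell membrane. A laminin joins an alpha, a beta and a gamma chain into a cross-shaped protein that polymerizes under epithelial cells and is bound by integrins. Tenascin C is an oligomeric glycoprotein with little expression in most adult epithelium, known from embryos, wounds and tumour stroma.

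The counts summed to 17218884 in the control library, 18337471 in DDX24-sh1 and 17847190 in DDX24-sh2. DDX24 itself had 2010, 637 and 765 counts in that order, which is 29.6% and 36.0% of the control level in DDX24-sh1 and DDX24-sh2. Mitochondrial genes held 4.36% (exact interval 4.35% to 4.37%) of the counts in the control, 5.13% (5.12% to 5.14%) in DDX24-sh1 and 7.04% (7.02% to 7.05%) in DDX24-sh2, and the part of this in the results below was not tested. The labels of the hairpin libraries were exchanged between the deposited counts and the deposited FPKM values: each FPKM file matched the counts of the other hairpin for 100% of 11641 genes with at least 50 counts, within 1% of a constant, and 5.33% and 5.32% of genes matched under the labels as given. The names used here are those of the counts, so a difference between the hairpin libraries cannot be tied to one hairpin. The keratin genes KRT8, KRT18 and KRT7, which mark epithelial cells, were high in every library, at 1249 to 3800 CPM, a gene's count scaled to an equal library total. Of the other epithelial markers, KRT19 stood at 58.6, 123 and 151 CPM and CDH1 at 31.5, 19.6 and 14.5 CPM in the control, DDX24-sh1 and DDX24-sh2, and EPCAM had 32, 29 and 29 counts. Of the leukocyte markers PTPRC and CD3E were at 0 in all libraries, CD14 had 139, 108 and 75 counts, and the 5 endothelial markers summed to at most 1.23 CPM.

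At a mean of at least 1 CPM over the 3 libraries, 30 members were kept for comparison, 20 collagens, 9 laminins and TNC. COL21A1 lay just inside this limit at 1.42 CPM and COL13A1 just outside it at 0.973 CPM. The 56 members together took 0.416% of the counts in the control (exact interval 0.413% to 0.419%), 0.402% in DDX24-sh1 (0.400% to 0.405%) and 0.385% in DDX24-sh2 (0.382% to 0.388%). Their summed level was lower than in the control by small amounts, with log2 ratios of -0.06 (-0.07 to -0.04) and -0.14 (-0.16 to -0.13), while single chains differed in both directions.

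**Figure D1:**
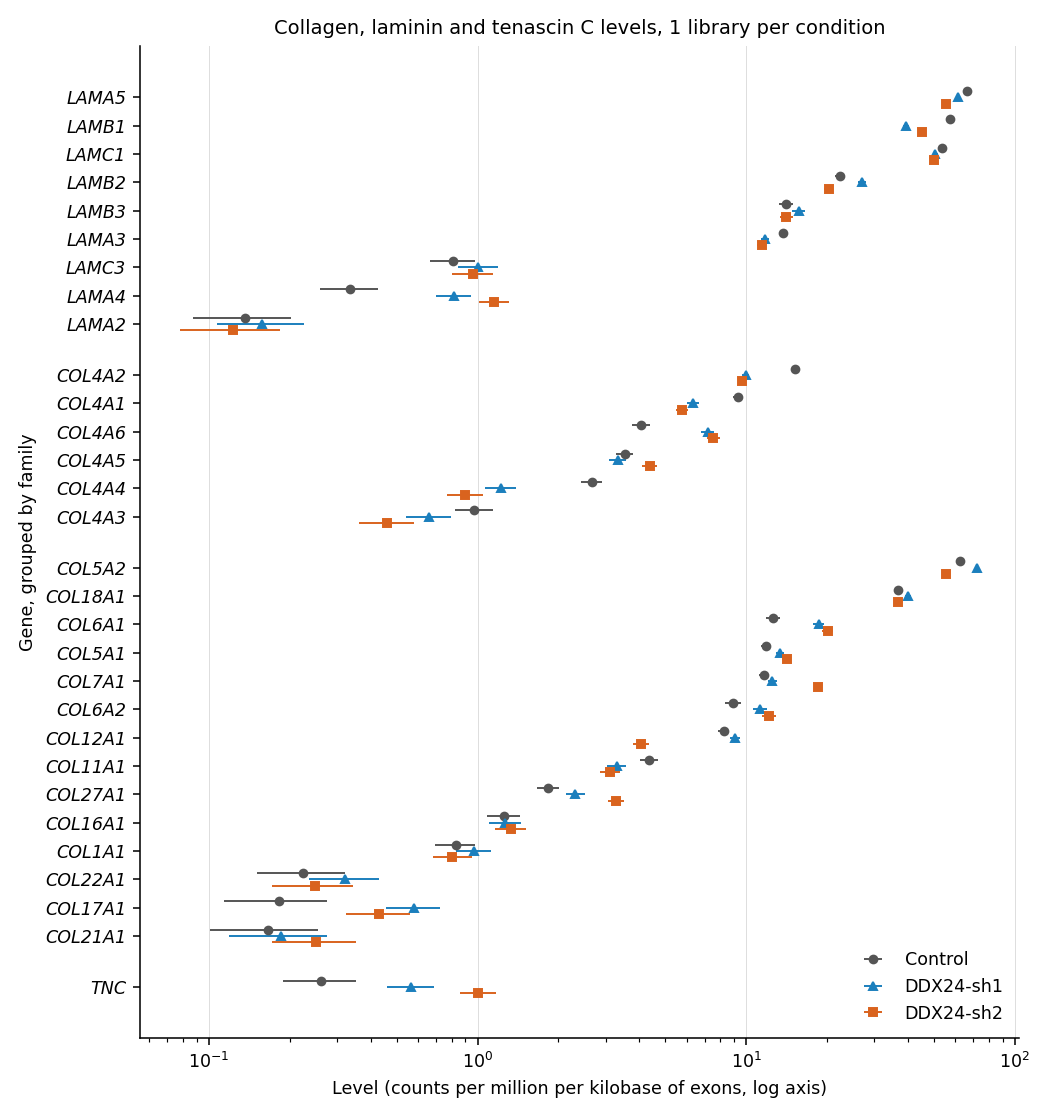
The plot of levels by library gives CPM per kilobase of annotated exons (log axis) for the 30 members kept, with bars for the exact 95% Poisson interval of each count. LAMA5 and COL5A2 stood near the top in every library, and TNC and LAMA4 lay lower and were lowest in the control.

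Per kilobase of exons, the most abundant members of the control library were LAMA5 (66.1), COL5A2 (62.2), LAMB1 (57.5), LAMC1 (53.4) and COL18A1 (36.7), all in CPM per kilobase. LAMA5, LAMB1 and LAMC1 are the chains of one trimer, a laminin of mature epithelial basement membranes, COL5A2 is a fibrillar collagen chain, and COL18A1 is a basement membrane proteoglycan collagen. The kilobases are the union of all annotated exons of a gene, so a gene with long rare transcripts such as COL4A2 (19293 bases) appears lower per kilobase than its main transcript is.

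Members were compared with the control by the log2 ratio of scaled CPM. Of the 30 members, 3 were at least 2-fold higher in both hairpin libraries, namely TNC, LAMA4 and COL17A1, and 1, COL4A4, was at least 2-fold lower in both. Over all 13984 genes that reached this mean, 1.19% were 2-fold higher and 1.38% were 2-fold lower in both. For the members the shares were 10.0% and 3.33%. The 3 higher members were low genes, with means of 5.89 CPM for TNC, 8.89 for LAMA4 and 2.81 for COL17A1. At a mean of at least 10 CPM, 0 members were 2-fold higher in both. The share of all genes is not matched for level. The same 3 genes were the only members 2-fold higher in each hairpin library taken alone, where 2.32% of all genes (DDX24-sh1) and 2.89% (DDX24-sh2) were. The members 2-fold lower were COL4A4 in DDX24-sh1 (2.27% of all genes) and COL4A4, COL4A3 and COL12A1 in DDX24-sh2 (3.07% of all genes). COL12A1 and COL4A3 lay just past the 2-fold limit in DDX24-sh2, at log2 ratios of -1.02 and -1.05, and COL4A6 lay just short of it on the higher side at 0.89. With the counting interval as the only limit, 9 members lay above the control in both libraries, against 14.0% of all genes, and 9 others lay below it in both, against 20.6%. This second pair of counts favours genes with many counts, since their intervals are narrow. The 30 members had a median log2 ratio of 0.15 for DDX24-sh1 and 0.0026 for DDX24-sh2, beside -0.02 and -0.03 for all genes.

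**Figure D2:**
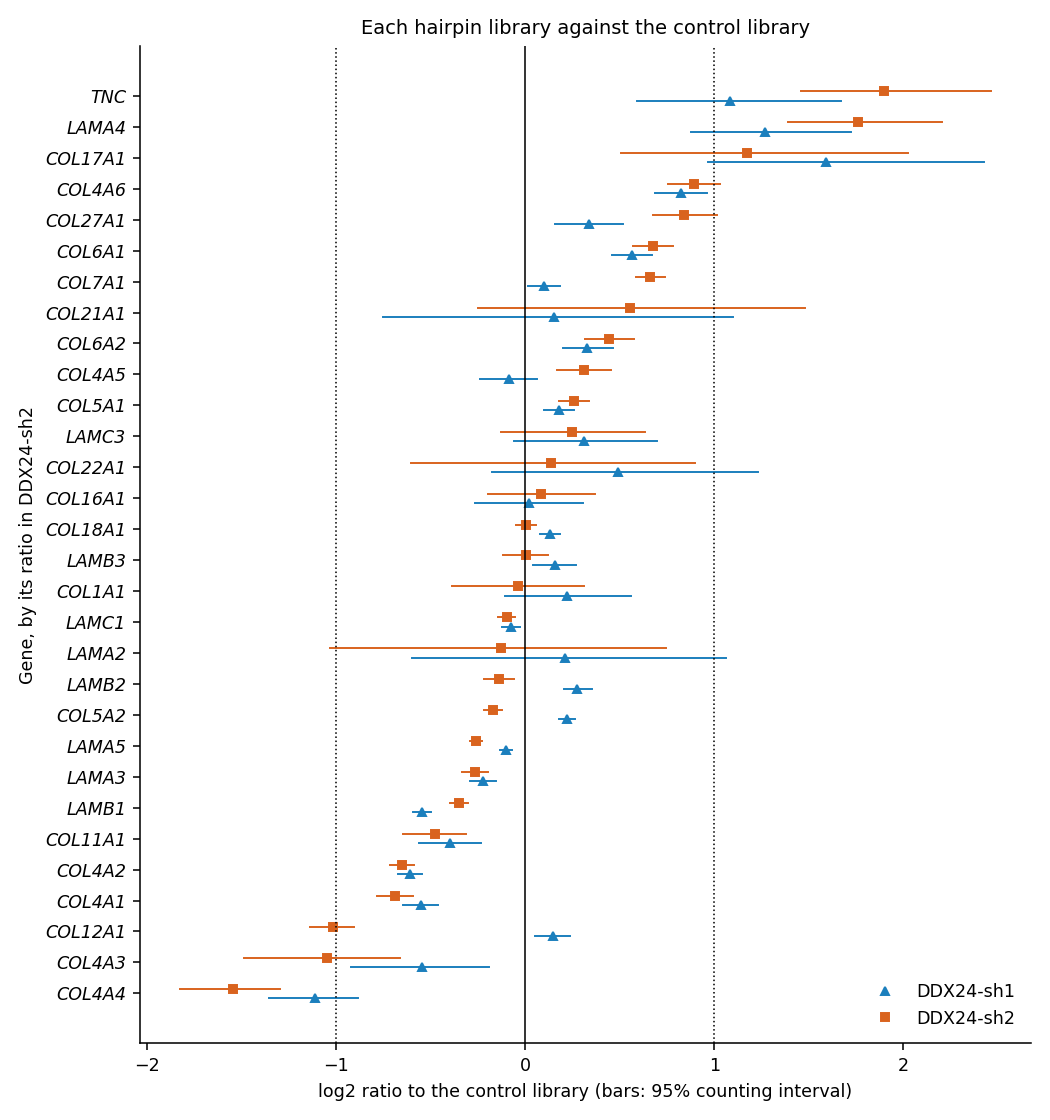
The plot of ratios shows, for the 30 members, the log2 ratio of each hairpin library to the control library with its 95% counting interval, with dotted lines at 2-fold. TNC, LAMA4 and COL17A1 lay beyond the upper line in both libraries and COL4A4 beyond the lower one, and the intervals of COL12A1 lay on opposite sides of 0.

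TNC (ENSG00000041982, minus strand of chromosome 9 of GRCh38, 115019578 to 115118257) had 43 counts in the control, 100 in DDX24-sh1 and 175 in DDX24-sh2. Both hairpin libraries stood above the control, DDX24-sh1 by 1.08 (0.59 to 1.67) and DDX24-sh2 by 1.90 (1.46 to 2.46) on the log2 scale, which is 2.12-fold and 3.73-fold. They also differed from each other, with DDX24-sh2 above DDX24-sh1 by 0.81 (0.46 to 1.20). Even at its highest, TNC stood at 1.01 CPM per kilobase, far under the main laminin chains. On the log2(FPKM + 0.1) scale with the hairpin labels exchanged back, which understates differences of low genes, TNC stood at 0.89 and 1.62, so DDX24-sh1 was short of 2-fold. The TNC exons share 129 bases with DEC1 on the opposite strand, which had 7, 0 and 2 counts, and how reads on the shared bases were assigned is not given in the sources used here. Among the markers fixed for fibroblasts, a cell type known for tenascin C, 5 of 10 passed 1 CPM, and the list summed to 31.8, 58.6 and 42.8 CPM in the control, DDX24-sh1 and DDX24-sh2. Most of that sum was THY1, at 19.4, 38.5 and 28.0 CPM, and the list holds 3 members, COL1A1, COL1A2 and COL3A1. LUM (27, 80 and 68 counts), PDGFRA (10, 25 and 22) and FAP (11, 34 and 14) also passed. In the control PDGFRA and FAP were under 1 CPM, at 0.59 and 0.64. PDGFRA passed only through the hairpin libraries. FAP passed only through DDX24-sh1, since it stood at 0.78 CPM in DDX24-sh2. The low place of both genes in the control is thus partly set by the filter. PDGFRB had 21, 15 and 9 counts, POSTN 0, 11 and 0, DCN 1, 1 and 0, and COL1A2 0, 0 and 3. The part of such cells in the TNC values was not tested. In RNA from whole cultures, fewer cells of a kind and less RNA per cell cannot be told apart.

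The bases before the RefSeq start site of TNC are shown because TNC had the largest ratio of the members in DDX24-sh2. In the annotation of the counts TNC starts further upstream, at 115118257, so the last bases shown lie inside that gene. The RefSeq window on GRCh38.p14 covers chr9:115118158-115118407 on the minus strand, 5′ to 3′, with a match of the GC box letters GGGCGG in capitals:
TNC: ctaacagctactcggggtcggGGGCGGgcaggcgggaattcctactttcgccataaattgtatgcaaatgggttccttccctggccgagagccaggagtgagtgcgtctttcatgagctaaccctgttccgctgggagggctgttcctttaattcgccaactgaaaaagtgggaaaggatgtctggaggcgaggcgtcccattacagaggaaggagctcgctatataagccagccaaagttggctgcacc

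Of the laminins, LAMA4 was 2-fold higher in both hairpin libraries. LAMA4 (ENSG00000112769, chromosome 6, 112108760 to 112254939), an alpha chain known mainly from vessels and mesenchyme, had 66, 173 and 241 counts. Its log2 ratios were 1.27 (0.87 to 1.72) and 1.76 (1.39 to 2.20), with DDX24-sh2 above DDX24-sh1 by 0.49 (0.21 to 0.79). The endothelial markers, none of which passed 1 CPM, summed to 1.23, 0.929 and 0.665 CPM in the same order, from 21, 17 and 12 counts, and of these PECAM1 had 6, 12 and 7. The part of endothelial cells in the LAMA4 values was not tested.

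LAMA3 and LAMB3 encode chains of a laminin that anchors epithelium. LAMA3, the alpha chain, had 3442, 3157 and 3025 counts and log2 ratios of -0.22 (-0.29 to -0.15) and -0.27 (-0.34 to -0.20). LAMB3, the beta chain, had 1126, 1343 and 1192 counts, with a log2 ratio of 0.15 (0.04 to 0.27) in DDX24-sh1 and one of 0.0015 (-0.12 to 0.12) in DDX24-sh2.

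LAMC1 (ENSG00000135862, chromosome 1, 183023460 to 183145592) encodes the gamma chain of most laminins. It had 7654, 7780 and 7556 counts, with log2 ratios of -0.08 (-0.12 to -0.03) and -0.10 (-0.15 to -0.05). LAMC3 had 105, 140 and 132 counts, and its intervals held 0 in both libraries.

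**Figure D3:**
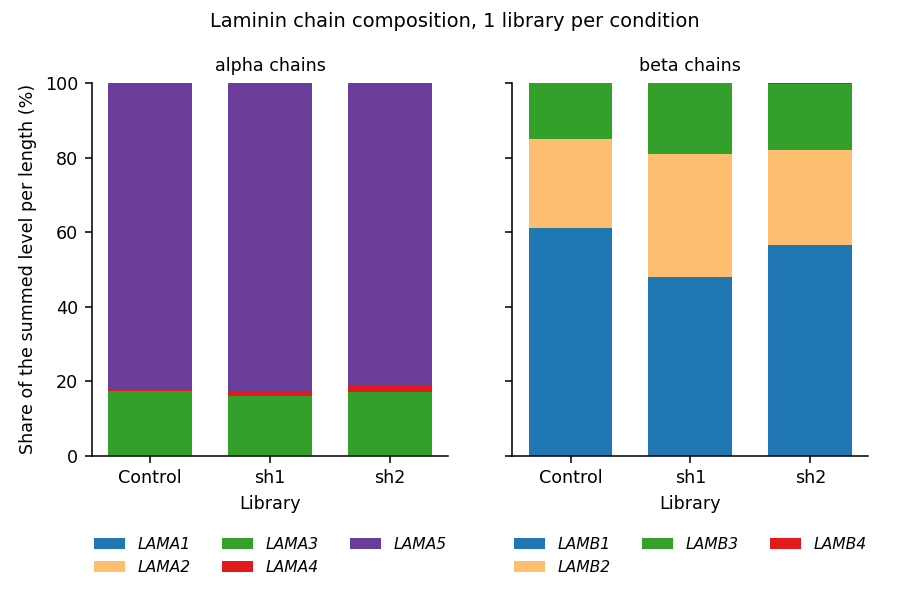
The plot of laminin composition stacks the share of each alpha and beta chain in the summed level per kilobase of its class, for 1 library per condition and without error bars. LAMB1 held 61.2%, 47.9% and 56.7% of the beta chains in the control, DDX24-sh1 and DDX24-sh2, and LAMA5 held 81.3% to 82.9% of the alpha chains.

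LAMA5, LAMB1 and LAMC1, the chains of the most abundant trimer by level, were each lower in both hairpin libraries. LAMB1, the beta chain, had 7983, 5850 and 6625 counts and log2 ratios of -0.55 (-0.60 to -0.50) and -0.35 (-0.40 to -0.30). LAMA5 had 16118, 16107 and 14233 counts, with log2 ratios of -0.10 (-0.13 to -0.07) and -0.26 (-0.29 to -0.23), so its difference was smaller than that of LAMB1. LAMA5 and LAMB1 share 244 and 70 exon bases with ADRM1 and DLD on the opposite strand, and without strand in the counting, reads from these bases could come from both. LAMB2, a beta chain of synapses, kidney and muscle that can take the place of LAMB1, had 2613, 3389 and 2511 counts. It was higher than the control in DDX24-sh1, at 0.28 (0.20 to 0.35), and lower in DDX24-sh2, at -0.14 (-0.22 to -0.06). LAMA2, the alpha chain of muscle laminin, had 24, 30 and 23 counts and could not be told from the control at this depth. The 9 laminins kept had medians of 0.15 and -0.13 in DDX24-sh1 and DDX24-sh2.

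Type IV collagen had chains on both sides of the control. Its 6 genes lie in 3 pairs whose members start close together and face away from each other. These are COL4A1 and COL4A2 on chromosome 13, COL4A3 and COL4A4 on chromosome 2, and COL4A5 and COL4A6 on chromosome X. In the annotation of the counts COL4A1 and COL4A2 overlap at their starts, with a gap of -1422 bases. The chains of the first pair form the common basement membrane trimer, and the others form trimers of kidney, lung and smooth muscle basement membranes. COL4A1 (ENSG00000187498) had 2343, 1709 and 1535 counts and COL4A2 (ENSG00000134871) had 4995, 3509 and 3355. The log2 ratios were -0.55 (-0.65 to -0.46) and -0.69 (-0.78 to -0.60) for COL4A1, and -0.61 (-0.67 to -0.55) and -0.65 (-0.72 to -0.59) for COL4A2. Both genes were thus lower by similar amounts in both libraries. Per kilobase of exons, COL4A2 over COL4A1 was 1.63, 1.57 and 1.67 in the control and the hairpin libraries in order. Such a ratio within a library needs no scaling between libraries. Its size depends on the annotated lengths, while its change does not. The log2 changes were -0.05 (-0.16 to 0.06) and 0.04 (-0.08 to 0.15).

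COL4A4 (ENSG00000081052, chromosome 2, 227002711 to 227164453) had 457, 225 and 164 counts, the lowest ratios of all members kept. They were -1.11 (-1.36 to -0.89) and -1.55 (-1.83 to -1.30) on the log2 scale, or 46.2% and 34.2% of the control level. Its partner COL4A3 (ENSG00000169031) had 151, 110 and 76 counts, with log2 ratios of -0.55 (-0.92 to -0.19) and -1.05 (-1.49 to -0.66). COL4A3 shares 120 exon bases with AC097662.1 on the opposite strand, which had 14, 11 and 11 counts. On chromosome X neither gene was lower in both libraries. COL4A6 (ENSG00000197565) had 645, 1223 and 1265 counts and log2 ratios of 0.82 (0.68 to 0.96) and 0.89 (0.75 to 1.03). COL4A5 (ENSG00000188153), which faces it, had 716, 722 and 938 counts. Its ratio of -0.09 (-0.24 to 0.06) in DDX24-sh1 could not be told from 0, and that of 0.31 (0.17 to 0.45) in DDX24-sh2 lay above it. COL4A6 over COL4A5 was 1.15 in the control, 2.16 in DDX24-sh1 and 1.72 in DDX24-sh2, a log2 change of 0.91 (0.70 to 1.12) and 0.58 (0.38 to 0.78), so this pair did not keep its ratio. COL4A4 over COL4A3 was 2.74, 1.85 and 1.95, a log2 change of -0.57 (-1.002 to -0.13) in DDX24-sh1 and of -0.49 (-0.98 to 0.0089) in DDX24-sh2, where the interval held 0. The pairs compared in this way were chosen after the values were seen. Of the summed type IV level per kilobase, COL4A6 held 11.4% in the control and 25.1% and 26.3% in the hairpin libraries, while COL4A2 held 42.5%, 34.6% and 33.6%.

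**Figure D4:**
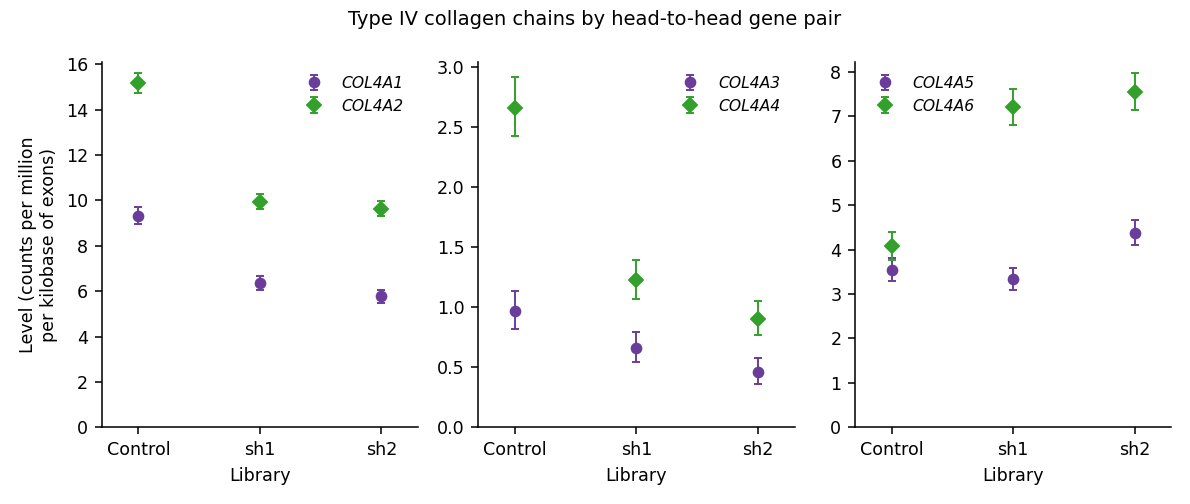
The plot of type IV collagen shows the level of each chain in CPM per kilobase of exons (axes start at 0, a separate scale per panel) in the 3 libraries, with exact 95% Poisson intervals of the counts. COL4A1 to COL4A4 were highest in the control, and COL4A6 was lowest in it.

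The bases between the RefSeq start sites of these pairs are given because each stretch lies before the RefSeq start of 2 genes. The gene starts in the annotation of the counts differ. By these, the stretch of COL4A1 and COL4A2 lies inside COL4A2 and partly inside COL4A1. That of COL4A4 and COL4A3 lies partly inside both genes. The bases come from the RefSeq windows of GRCh38.p14 and are written on the plus strand, 5′ to 3′. Matches of CCAAT and GGGCGG on either strand are in capitals. The start sites of COL4A1 and COL4A2 lie 126 bases apart, and the whole stretch, chr13:110307158-110307283, has a GC content of 80.2%. Those of COL4A4 and COL4A3 lie 418 bases apart, and the 250 bases next to COL4A3, chr2:227164374-227164623, have 66.4% GC. Those of COL4A6 and COL4A5 lie 379 bases apart, and the 250 bases next to COL4A5, chrX:108439588-108439837, have 51.2% GC. COL4A6 has a further RefSeq start inside its gene, at 108438422.
COL4A1 and COL4A2: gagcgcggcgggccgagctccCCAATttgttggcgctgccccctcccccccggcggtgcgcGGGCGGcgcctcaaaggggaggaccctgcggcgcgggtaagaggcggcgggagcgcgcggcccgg
COL4A4 and COL4A3: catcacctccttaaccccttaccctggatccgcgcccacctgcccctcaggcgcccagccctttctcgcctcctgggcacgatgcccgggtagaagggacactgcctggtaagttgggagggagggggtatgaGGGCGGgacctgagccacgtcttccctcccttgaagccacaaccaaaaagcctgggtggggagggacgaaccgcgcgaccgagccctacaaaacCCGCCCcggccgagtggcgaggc
COL4A6 and COL4A5: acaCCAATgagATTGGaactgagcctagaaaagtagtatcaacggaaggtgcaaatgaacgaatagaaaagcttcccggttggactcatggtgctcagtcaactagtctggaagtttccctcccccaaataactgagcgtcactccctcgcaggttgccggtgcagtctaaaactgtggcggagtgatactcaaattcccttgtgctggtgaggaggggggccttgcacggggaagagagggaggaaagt

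RefSeq promoter windows of 300 bases, 250 before and 50 after a start, were at hand for 42 of the 56 members and 25 of the 30 kept. The GC box letters GGGCGG on either strand were found in 66.7% of the 42, beside 45.0% of 35116 windows of all genes. CCAAT was found in 33.3% of the members and 34.6% of all windows, TATAAA in 16.7% and 11.5%, and the AP-1 letters TGACTCA in 4.76% and 4.95%. The AP-1 letters were in the windows of LAMA3 and LAMB3. A member counted when any of its windows matched, while the share of all windows counted each window singly. Members with several windows raise the member shares, so the paired percentages are unlike measures. These are matches of letters and no evidence of binding.

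COL6A1 and COL6A2 encode chains of the beaded filaments of type VI collagen and lie 93046 bases apart on the same strand of chromosome 21. COL6A1 had 1148, 1819 and 1938 counts, with log2 ratios of 0.56 (0.46 to 0.67) and 0.67 (0.57 to 0.78). COL6A2 had 824, 1109 and 1184 counts, with ratios of 0.33 (0.20 to 0.46) and 0.44 (0.31 to 0.57). Of the other type VI chains, COL6A3 had only 1, 3 and 4 counts, COL6A5 2, 0 and 0, and COL6A6 0, 7 and 1. COL7A1, which forms the anchoring fibrils that tie basement membrane to stroma, had 2207, 2531 and 3693 counts. It was close to the control in DDX24-sh1, at 0.10 (0.01 to 0.18), and higher in DDX24-sh2, at 0.66 (0.59 to 0.74).

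Among the fibrillar collagens, 5 of 11 were kept and none was 2-fold higher or lower in either library. COL5A2 had 7913, 9865 and 7429 counts, higher than the control in DDX24-sh1 at 0.22 (0.18 to 0.26) and lower in DDX24-sh2 at -0.17 (-0.22 to -0.13). COL5A1, its partner in type V collagen, had 2258, 2736 and 2856 counts and was higher in both, at 0.18 (0.10 to 0.26) and 0.26 (0.18 to 0.34). COL27A1, a chain known from cartilage, had 437, 591 and 828 counts and log2 ratios of 0.33 (0.15 to 0.52) and 0.84 (0.67 to 1.01). COL11A1 stood at 39.5, 29.96 and 28.3 CPM and was lower in both, at -0.40 (-0.56 to -0.23) and -0.48 (-0.65 to -0.31). COL1A1 had 139, 174 and 143 counts, with intervals that held 0, and its partner in type I collagen, COL1A2, had 0, 0 and 3 counts.

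COL17A1 is a membrane-spanning collagen of the hemidesmosome, a junction that holds epithelial cells to the basement membrane. It had 22, 75 and 55 counts (ENSG00000065618, chromosome 10, 104031286 to 104085957). Its log2 ratios were 1.59 (0.97 to 2.43) and 1.17 (0.50 to 2.03), and the hairpin libraries could not be told apart at this depth (-0.42, interval -0.96 to 0.09). On that FPKM scale its ratios were 1.28 and 0.92, the second short of 2-fold. COL12A1, which decorates the surface of fibrils, differed most between the hairpin libraries. It had 1756, 2081 and 915 counts, with log2 ratios of 0.15 (0.05 to 0.24) in DDX24-sh1 and -1.02 (-1.14 to -0.91) in DDX24-sh2, and the second library relative to the first stood at -1.17 (-1.28 to -1.05). COL18A1 had 5339, 6252 and 5661 counts, at 0.13 (0.07 to 0.18) and 0.0038 (-0.05 to 0.06). Its exons share 1401 bases with SLC19A1 on the opposite strand, which had 602, 491 and 532 counts, the longest such overlap among the members kept. COL16A1, COL21A1 and COL22A1 had 20 to 222 counts and intervals that held 0 in both libraries.

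**Figure D5:**
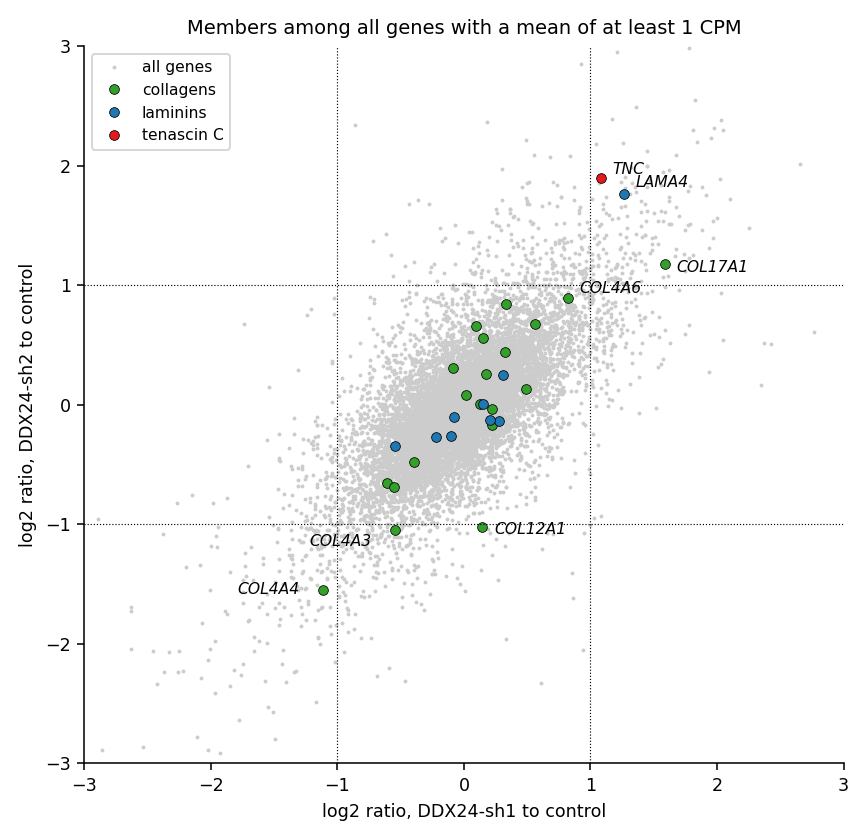
The scatter places the members (collagens, laminins and TNC in colour) among the other genes that reached 1 CPM, by their log2 ratio to the control in DDX24-sh1 and DDX24-sh2, which share that control, with dotted lines at 2-fold and 19 genes outside the axes. TNC, LAMA4 and COL17A1 sat in the upper right corner at 2-fold or more in both, and COL12A1 sat apart from the diagonal.

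In all, 17 of the 30 members differed between the hairpin libraries beyond counting error, 8 with the higher level in DDX24-sh2, against 21.0% of all genes, and 9 with the lower, against 23.8%. LAMA4, TNC, COL7A1, COL27A1, COL5A1, COL6A1, COL4A5 and LAMB1 had the higher level in DDX24-sh2. The largest of the differences in that direction was that of TNC.

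The collagens kept belong to families that differ in their coding sequence. Runs of glycine codons, 1 in each triplet of codons, were taken from the longest complete coding transcript of each gene in GENCODE 29. The longest unbroken run was 338 triplets in COL5A1, COL11A1 and COL1A1 and 339 in COL5A2. In COL27A1, the other fibrillar collagen kept, it was 217 triplets. In the 6 type IV genes it was 38 to 66 triplets, and the helix was spread over 22 to 27 runs of at least 6. COL17A1 had a longest run of 56 and COL12A1 one of 32, while no laminin gene and not TNC had a run above 4.

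The 26 members under 1 CPM are listed apart. Of these, 8 had at least 10 counts in some library, with counts in the control, DDX24-sh1 and DDX24-sh2 of 15, 12 and 25 for COL13A1, 26, 17 and 7 for COL26A1, 11, 16 and 20 for COL11A2, 18, 21 and 6 for COL5A3, 2, 27 and 8 for COL3A1, 8, 7 and 18 for LAMB4, 12, 9 and 7 for COL15A1 and 12, 5 and 4 for COL8A2. COL3A1, a fibrillar collagen of fibroblasts, was the one with the largest gap, and its interval lay above 0 in DDX24-sh1 (1.66 to 6.77 on the log2 scale) but not in DDX24-sh2 (-0.41 to 5.19). POSTN, another fibroblast product, had 0, 11 and 0 counts. The intervals of COL26A1 (-3.42 to -0.73) and COL5A3 (-3.29 to -0.27) lay below 0 in DDX24-sh2 but held 0 in DDX24-sh1. A further 15 members had fewer than 10 counts in every library, and COL9A1, COL19A1 and COL25A1 had none in any, which allows up to 3 counts in a library.

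Genes that fold, export, cross-link, accompany or bind these proteins were described from lists, 78 genes in all, of which 62 passed 1 CPM. None of the 62 was 2-fold higher in both hairpin libraries, beside 1.19% of all genes. Only 1, SMOC1, was 2-fold lower in both, beside 1.38% of all genes. It had 1478, 578 and 450 counts and log2 ratios of -1.45 (-1.60 to -1.32) and -1.79 (-1.95 to -1.64). SMOC1 encodes a calcium-binding protein of basement membranes.

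Of the enzymes and chaperones of collagen folding, 18 of 18 passed, with medians of 0.14 and 0.04 for the hairpin libraries in order. The most abundant, P4HB, a subunit of prolyl 4-hydroxylase, was at -0.18 and -0.14, and PLOD2, a lysyl hydroxylase, had 6912, 10043 and 11493 counts and log2 ratios of 0.44 (0.39 to 0.48) and 0.65 (0.61 to 0.70). P3H2, a prolyl 3-hydroxylase that acts on type IV collagen, had 1881, 1105 and 781 counts and was lower in both, at -0.87 (-0.98 to -0.76) and -1.35 (-1.47 to -1.23). SERPINH1, the collagen chaperone HSP47, had 1643, 2373 and 2380 counts, at 0.43 and 0.45.

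Of the export, processing and cross-linking genes, 10 of 17 passed. TGM2, a transglutaminase, had 19524, 44719 and 29891 counts and log2 ratios of 1.10 (1.07 to 1.12) and 0.53 (0.51 to 0.56), so only DDX24-sh1 was past 2-fold. LOXL2, a lysyl oxidase that cross-links type IV collagen, was at 0.56 (0.52 to 0.60) and 0.11 (0.07 to 0.15). Of the basement membrane partners, 8 of 9 passed, with medians of 0.03 in the first hairpin library and -0.57 in the second. AGRN, agrin, was at 0.12 and -0.04, and HSPG2, perlecan, had 5250, 8008 and 7483 counts, at 0.51 (0.46 to 0.56) and 0.43 (0.38 to 0.48). FBLN1, fibulin-1, had 1549, 1163 and 863 counts and was lower in both, at -0.51 (-0.62 to -0.40) and -0.92 (-1.05 to -0.80). NTN4, netrin-4, had 5162, 5695 and 3193 counts, at 0.04 (-0.01 to 0.10) and -0.77 (-0.84 to -0.71).

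Of the receptors, 18 of 21 passed, and 7 had intervals above 0 in both libraries (14.0% of all genes) and 1 had intervals below it in both (20.6%). ITGB1 and ITGA3, subunits of a laminin receptor, were at -0.04 and -0.01 and at 0.38 and 0.18. ITGB3, a subunit of an integrin that binds tenascin C, had 95, 262 and 200 counts, with log2 ratios of 1.35 (1.02 to 1.72) and 0.98 (0.63 to 1.36), the second just short of 2-fold. Not every integrin subunit of the list was higher: ITGB6 had 35, 20 and 41 counts, at -0.84 (-1.78 to -0.07) and 0.14 (-0.54 to 0.84). ITGA9 had 1, 1 and 2 counts. Of the other tenascins and matrix glycoproteins, 8 of 13 passed. TGFBI was at -0.03 and 0.06 and FN1, fibronectin, at -0.09 and -0.10. The other tenascin that passed, TNXB, had 73, 95 and 49 counts, and TNR and TNN had at most 2.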

How the data were processed

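Whole transcriptomes of A549 cells were sequenced, 4 μg of total RNA per library. The authors deposited raw counts per gene and FPKM values (fragments scaled to transcript length and library size by the authors) for each library. The submitters' processing notes name Bowtie2 2.0.6, TopHat2 2.0.9, Cufflinks 2.1.1 and Cuffdiff 2.1.1; roles, the counter, strandedness and the treatment of reads with several matches are not given in the sources used here. Starts and ends of the 58735 genes matched GENCODE 29 (GRCh38).

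Counts were scaled with TMM in edgeR 4.0.16 (R 4.3.3), and log2 CPM used a prior count of 2. Exact intervals, binomial for a gene and of the conditional odds ratio for a pair of chains, came from SciPy 1.17.1, at totals of 17218884 to 18337471 counts, and figures from matplotlib 3.10.9 in Python 3.11.15. Without molecular identifiers, reads can be copies of one molecule. No count model was fitted, since each condition has 1 library, and a fit that treats the hairpins as replicates was not run. A gene was called at 2-fold or more with a mean of at least 1 CPM. Groups came from the sample titles. The steps were tested on simulated data. Promoters came from RefSeq.

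The naming rule finds 57 genes, of which 1 is not reported here and enters no count of members. Members and lists were chosen with earlier results of these data known. Named were members at 10 CPM or more or past 2-fold in either hairpin library, chains of named trimers, members under 1 CPM with 10 counts in a library, and in the other lists the genes 2-fold changed in both libraries and the 2 most abundant. P3H2, SERPINH1, FBLN1, NTN4, ITGB3, ITGB6, ITGA9, COL1A1, COL6A5, COL6A6, LAMC3, LAMA2, COL16A1, COL21A1, COL22A1, TNXB and POSTN were otherwise picked after their values were seen or complete a group. Alternatives were DESeq2 1.42.0 size factors, total counts, a prior count of 0.5, log2(FPKM + 0.1), other filters and a limit of 1.5-fold.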

Additional observations from a re-analysis of the deposited data

Results flagged for a closer look

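For 3 members the 2 hairpin libraries lay on opposite sides of the control library, each with a counting interval beyond 0. Whether the hairpins differ was not tested, since each has 1 library. For COL12A1 the log2 ratio to the control was 0.15 with DDX24-sh1, against -1.02 with DDX24-sh2. COL5A2 had 0.22 and -0.17, and LAMB2 had 0.28 and -0.14. The exchanged hairpin labels of the FPKM values would swap each pair.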

How the results depend on the processing

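No paired analysis was possible because each condition has 1 library, and leaving out a replicate was not possible for the same reason. Under DESeq2 size factors, total counts, a prior count of 0.5 and the FPKM with the hairpin labels exchanged back, all 68 log2 ratios of single genes moved by less than their counting intervals. With the labels exchanged back, the FPKM matched the counts within 1% of a constant for 100% of 11641 genes. Their agreement is thus no independent check. The FPKM with labels as given moved 26 of the 68 ratios. They turned the sign of 13 others whose intervals lay beyond 0, by construction of the exchanged labels. Signs also turned for COL1A1 and LAMA2 in both libraries and for COL4A5 in DDX24-sh1, whose intervals held 0. DDX24 was then -1.45 with the first hairpin and -1.72 with the second, and TNC was 0.89 with the second. Of the 13, the ratios to the control were those of COL12A1 (-0.99 and 0.16 in DDX24-sh1 and DDX24-sh2), LAMB2 (-0.13 and 0.29), COL5A2 (-0.16 and 0.23) and COL4A5 (-0.073 in DDX24-sh2). The ratios of DDX24-sh2 to DDX24-sh1 that turned were TNC (-0.73), COL12A1 (1.15), LAMA4 (-0.45), COL7A1 (-0.56), COL27A1 (-0.48) and COL5A2 (0.39).

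The number of members 2-fold higher in both libraries, 3, was 1 with either FPKM labelling, 0 at a mean of at least 10 CPM and 9 by the counting interval. The number lower in both, 1, was 3 with no filter, 2 at 1.5-fold and 9 by the counting interval. In DDX24-sh1 the 3 higher members were 6 with no filter and 0 at 10 CPM, and the 1 lower member was 4 with no filter and 2 at 1.5-fold. In DDX24-sh2 the 3 higher members were 6 with no filter, 0 at 10 CPM and 7 at 1.5-fold, and the 3 lower members were 1 with either FPKM labelling, 8 with no filter and 5 at 1.5-fold. Of the other lists, the 0 genes higher in both became 1 under total counts or no filter, 3 at 1.5-fold and 17 by the interval (14.0% of all genes). The 1 lower in both became 2 with no filter, 3 at 1.5-fold and 12 by the interval (20.6% of all genes). Apart from the interval, shares of all genes were taken only at 2-fold under the 1 CPM filter. Whether the counts under the other filters, the 1.5-fold limit or the other scalings depart from all genes was thus not tested.

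The median of all members was 0.012 and 0.15 (DDX24-sh1, DDX24-sh2) with the FPKM labels as given, 0 in DDX24-sh1 with no filter and -0.099 in DDX24-sh2 at 10 CPM. That of the collagens was 0 and 0.0019 with no filter. The median of the laminins in DDX24-sh1 was -0.090 with the FPKM labels as given, -0.076 with no filter and -0.089 at 10 CPM, so its sign depends on the filter, and in DDX24-sh2 it was 0.14 with the FPKM labels as given. The median of all genes moved by less than 0.1 under every scaling. Depth limits the low members: in DDX24-sh1 the interval of TNC ran from 0.59 to 1.67, and that of LAMA5 from -0.13 to -0.07.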
